A study of Mus musculus with 2 samples.

Results

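The genes described here encode the proteins of the cytoplasmic ribosome. They were chosen by name, as protein-coding genes of the GENCODE M21 annotation called Rpl or Rps followed by a number with optional letters, together with Rplp0, Rplp1, Rplp2 and Rpsa, and without pseudogene names. The rule found 82 of 21911 protein-coding genes. Of these, 6 are paralogs of other members (Rpl3l, Rpl10l, Rpl39l, Rpl36al, Rps27l and Rps27rt) and were set apart, which left 76 genes, 30 for the small subunit and 46 for the large subunit. The rule does not reach Rps3a1, Fau and Rack1, which also encode ribosomal proteins, and their values are given at the end.

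Open chromatin was mapped by DNase-seq, which finds the places where the enzyme DNase I cuts chromatin, in gastrocnemius, a calf muscle of the hindlimb. The tissue came from untreated female B6CASTF1/J mice, the first-generation cross of C57BL/6J and CAST/EiJ, at 10 days of age. The labels give a single group of 2 biological replicates, here replicate 1 and replicate 2, and name 3 females for each, so animals were pooled within a library. Both samples also carry the same donor identifier, so it is not stated whether the pools were separate animals, and the spread between libraries may be partly technical. No other tissue, age or treatment was compared, so no difference between conditions was tested, and the spread between the libraries is the only error available. Peaks were called on mm10, the C57BL/6J reference, and the alleles of the parents were not separated.

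A ribosome has a small subunit, which reads the messenger RNA, and a large subunit, which joins amino acids. Each contains 1 copy of most of its proteins, so their genes are active together in nearly every cell, and growing muscle makes many ribosomes. Promoters of these genes are known for short, sharply placed starts, for a pyrimidine tract at the first bases of the transcript (the TOP motif, through which mTOR signalling controls translation of the RNA), and for binding sites of general factors. Many of the genes also carry small nucleolar RNAs, guides for ribosomal RNA modification, inside their introns.

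The shorter deposited peak list held 114758 peaks in replicate 1 and 26804 in replicate 2, with 468215 and 115528 footprints, which are short stretches inside open chromatin that were protected from cutting. Median peak height, a signal normalized to read depth on a scale that is not stated, was 1.18 and 1.48, and heights are therefore read within a library. The tissue label was read against marker genes. Of 10 muscle markers 3 (Ckm, Actn3 and Slc2a4) had a promoter peak in both libraries, with heights of 2.63 to 14.7 in replicate 1 and 3.15 to 5.02 in replicate 2, while Des, Tnnt3, Myh4 and Myh1 had none in either. Promoter peaks in both libraries were also present at 3 of 4 neuron markers (4 in replicate 1, heights 6.44 to 12.6, and 3 in replicate 2, heights 0.654 to 1.60), at 2 of 4 fibro-adipogenic, 1 of 4 Schwann cell and 1 of 4 endothelial markers, and at 0 of 4 macrophage markers. The part of other cells in the results below was not tested.

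Every one of the 76 genes had a promoter peak, meaning a peak within 1 kb of an annotated transcription start, in both libraries. Of all 82 members, 79 had one in replicate 1, 78 in replicate 2 and 78 in both. Over all protein-coding genes the shares were 66.7% in replicate 1, 51.4% in replicate 2 and 51.0% in both. Promoters rich in CpG dinucleotides are open in most tissues, and in the highest of 3 classes of CpG count the shares were 97.6%, 84.9% and 84.7%. In a bulk tissue, a peak in fewer cells and a weaker opening in each cell cannot be told apart. The mitochondrial ribosomal protein genes, a group of similar size with names Mrpl and Mrps, had a promoter peak at 78 of 78 genes in replicate 1 and at 75 in replicate 2.

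The median of the 76 promoters lay above that of all open promoters in both libraries. The tallest promoter peak of each gene had a median height of 10.6 in replicate 1, with a range of 2.90 to 30.2, and of 2.83 in replicate 2, with a range of 1.46 to 8.08. All genes with a promoter peak had medians of 6.30 and 2.03, genes of the highest CpG class 9.56 and 2.17, and mitochondrial ribosomal protein genes 7.93 and 2.21. Of the 76 genes, 60 in replicate 1 and 64 in replicate 2 lay above the all-gene median. In replicate 1, 64 of 76 were among the tallest 10% of all peaks, against 53.2% of all genes with a promoter peak, and in replicate 2 34 of 76 were, against 21.4%.

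**Figure D1:**
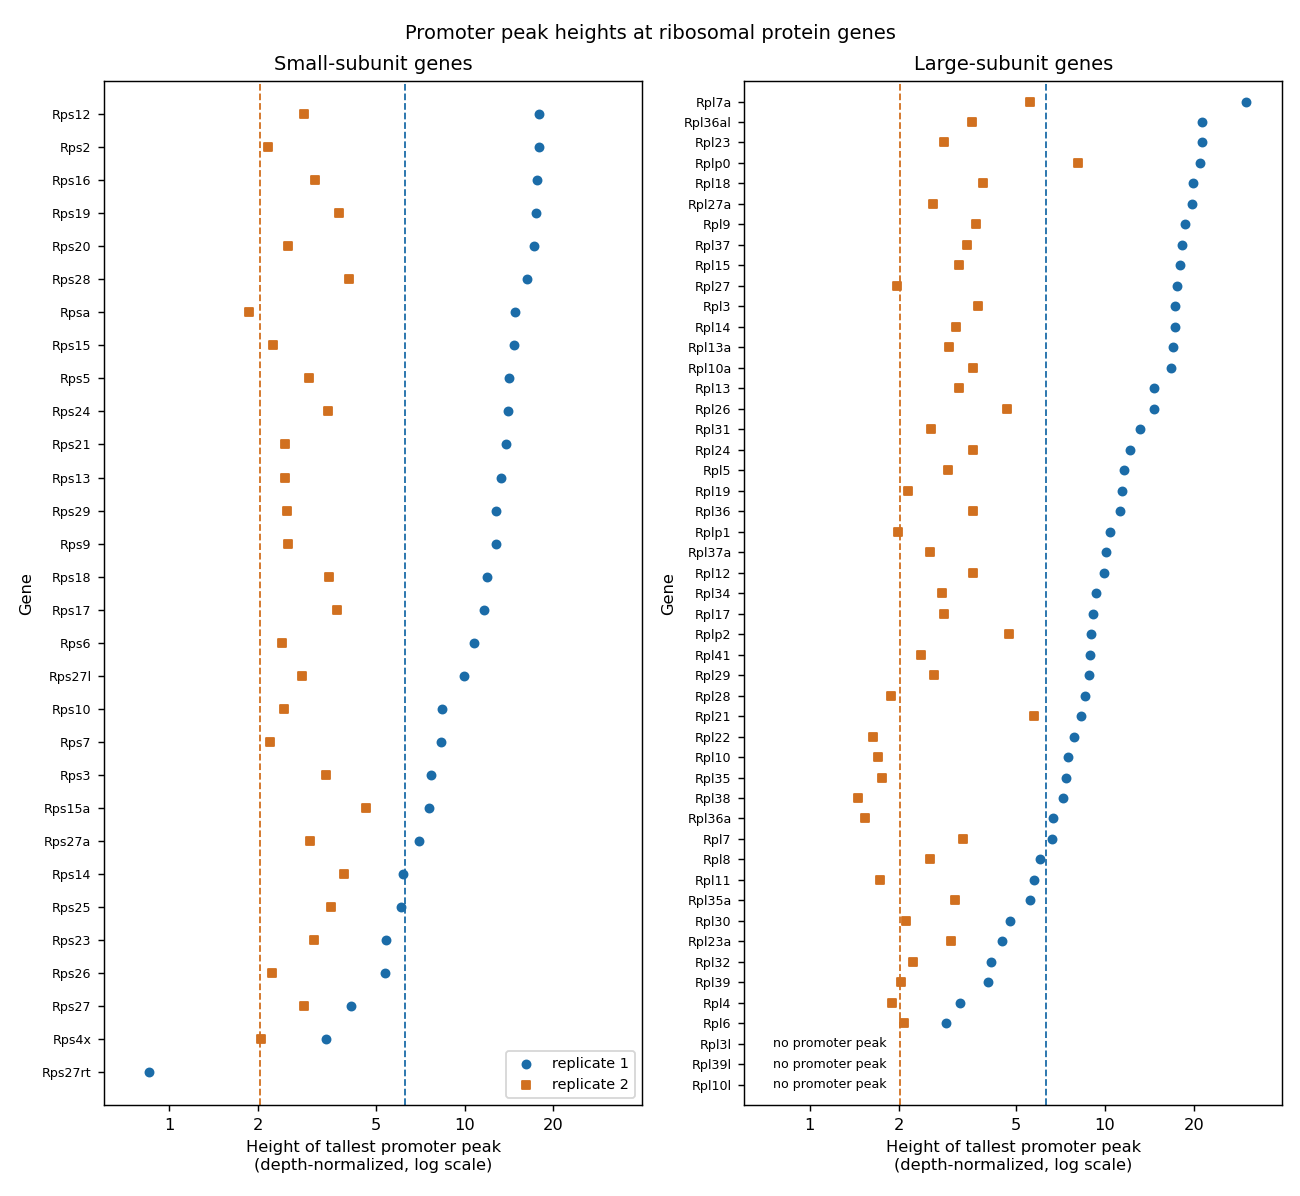
Height of the tallest promoter peak at 79 of the 82 members, on a log scale, with a circle for replicate 1 and a square for replicate 2. Dashed lines mark the medians of all protein-coding genes with a promoter peak, 6.30 and 2.03; most members lie to the right of the line of their library, and Rpl3l, Rpl39l and Rpl10l have no point.

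The gene that ranked highest over both libraries was Rpl7a, which encodes a large-subunit protein. Its peak had a height of 30.2 at chr2:26910621-26910800 in replicate 1 and of 5.60 at chr2:26910641-26910860 in replicate 2. Rplp0, whose product anchors the stalk that recruits elongation factors, followed with 21.0 and 8.08, the latter the tallest peak of the family in replicate 2. Rpl26, a large-subunit gene, reached 14.7 and 4.66, and Rpl18, also of the large subunit, 19.8 and 3.87. Rps28 and Rps19 led the small-subunit genes by mean rank, with 16.3 and 4.05 for Rps28, and 17.5 and 3.74 for Rps19, a gene mutated in Diamond-Blackfan anaemia in humans. These 6 genes stood in the upper part of the range in both libraries, which a choice by mean rank favours. The Rps19 heights belong to separate peaks, centred at -11.5 bp in replicate 1 and at -461.5 bp in replicate 2. Its replicate 2 peak nearest to the start had a height of 3.27. The letters below are those of the C57BL/6J reference, from RefSeq on GRCm38.p6, and not of the hybrid animals.

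The promoters of the 4 genes with the highest mean rank over both libraries are shown, chosen by that rank alone. Each runs from 150 bases before the RefSeq start to 29 bases after it, 5′ to 3′ on the gene's strand, and capitals mark bases inside a footprint of either library.
Rpl7a, chr2:26910657-26910836, plus strand: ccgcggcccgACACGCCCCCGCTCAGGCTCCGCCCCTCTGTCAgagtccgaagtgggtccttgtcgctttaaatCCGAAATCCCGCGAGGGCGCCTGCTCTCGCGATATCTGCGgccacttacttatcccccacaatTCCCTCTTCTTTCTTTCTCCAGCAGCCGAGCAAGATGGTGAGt
Rplp0, chr5:115559317-115559496, plus strand: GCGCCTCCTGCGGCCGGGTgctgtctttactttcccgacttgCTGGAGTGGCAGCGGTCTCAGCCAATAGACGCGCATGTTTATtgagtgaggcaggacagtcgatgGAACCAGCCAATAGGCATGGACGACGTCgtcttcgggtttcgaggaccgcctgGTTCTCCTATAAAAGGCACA
Rpl26, chr11:68901416-68901595, plus strand: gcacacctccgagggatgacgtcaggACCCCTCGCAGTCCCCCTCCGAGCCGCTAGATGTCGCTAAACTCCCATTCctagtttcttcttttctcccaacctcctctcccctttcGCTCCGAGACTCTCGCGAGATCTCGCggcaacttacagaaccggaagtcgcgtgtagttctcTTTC
Rpl18, chr7:45717921-45718100, plus strand: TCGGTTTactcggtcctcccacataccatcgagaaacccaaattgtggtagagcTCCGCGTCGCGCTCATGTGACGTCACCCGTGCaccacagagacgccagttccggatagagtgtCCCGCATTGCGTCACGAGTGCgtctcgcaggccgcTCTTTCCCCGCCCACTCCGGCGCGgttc
In Rpl7a and Rpl26 a footprint covers the letters TCTCGCGA close to the start. In Rplp0 a footprint covers each of the CCAAT letters in this window.

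At the lower end, Rpl38 had 7.24 in replicate 1 and 1.46 in replicate 2, the lowest height of the family in that library. Rpl38 is the large-subunit gene disrupted in the mouse mutant Tail short. Rpl36a had 6.68 and 1.54, Rpl4 3.23 and 1.90, Rpl22 7.85 and 1.64, and Rpl11 5.75 and 1.74. Of these 5, Rpl38, Rpl36a and Rpl22 lay above the all-gene median in replicate 1 and below it in replicate 2, while Rpl4 and Rpl11 lay below it in both. Rpl11 and Rpl5, whose products bind Mdm2 together with 5S ribosomal RNA when ribosome assembly fails, differed in height, with 11.6 and 2.95 for Rpl5.

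The subunits overlapped in height. Small-subunit genes had a median of 12.3 in replicate 1 (quartiles 7.17 and 14.8) and 2.70 in replicate 2 (quartiles 2.29 and 3.44), and large-subunit genes 9.60 (7.28 and 17.0) and 2.83 (2.09 and 3.53). The small-subunit median was thus the higher in replicate 1 and the lower in replicate 2. Within the stalk, Rplp0 with 21.0 and 8.08 stood above Rplp1 with 10.4 and 1.99 and Rplp2 with 8.96 and 4.73, and the last 2 changed order between libraries. Rps6, whose product is phosphorylated by S6 kinase, had 10.7 and 2.40. Rps3, at the entry of the messenger RNA channel, had 7.67 and 3.39, and Rpl23, which also binds Mdm2, 21.3 and 2.85. Rpl13a had 17.1 and 2.97, and Rps27a, made as a fusion with ubiquitin, 7.03 and 3.00.

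The libraries ranked the family differently. Across the 76 genes, which share libraries and are not independent replicates, Spearman's rho between the heights was 0.368, against 0.605 across 11169 protein-coding genes with a promoter peak in both. It was 0.572 across the 46 large-subunit genes and -0.0289 across the 30 small-subunit genes. The family covers a narrower range of heights than all genes, and rho can depend on that range. Whether this accounts for the lower rho of the family was not tested. The log2 ratio of replicate 1 to replicate 2 had a median of 1.99 with an SD of 0.720 over the 76 genes and a median of 1.97 with an SD of 0.981 over all genes, so the family moved with the overall offset between the lists.

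Among the largest ratios was that of Rpl27, with heights of 17.6 and 1.97 and a log2 ratio of 3.16, followed by Rps2 with 17.9 and 2.15 (3.06) and Rpsa, the gene of a small-subunit protein also known as the laminin receptor, with 14.8 and 1.87 (2.99). These 3 stood above the median of the 76 genes in replicate 1 and below it in replicate 2. A choice by large ratio favours this. The ratio was smallest at Rpl6, with 2.90 and 2.08 and a log2 ratio of 0.48. Rps27 had 4.12 and 2.86 (0.52), Rpl21 8.28 and 5.76 (0.52) and Rpl23a 4.49 and 3.01 (0.57). Rpl21 was second to Rplp0 in replicate 2. At Rpl27, Rps27 and Rpl21 the peaks of the libraries did not count as shared by the overlap rule given below. At Rpl21 they did not overlap at all. The ratios of these genes therefore compare peaks that lie at least partly on different bases.

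**Figure D2:**
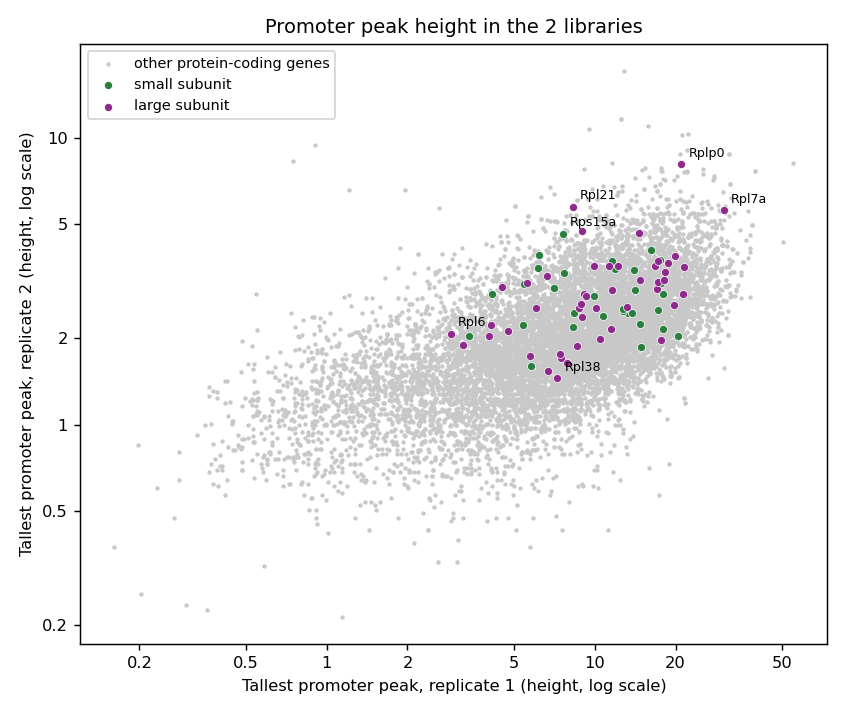
Height of the tallest promoter peak in replicate 1 (horizontal) against replicate 2 (vertical), both on log scales, for genes with a promoter peak in both libraries. Grey points are other protein-coding genes; small-subunit genes (green) and large-subunit genes (purple) lie within the cloud, mostly toward its upper right, from Rpl6 at 2.90 and 2.08 to Rpl7a at 30.2 and 5.60.

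A promoter peak was shared, with an overlap of at least 50% of either peak, at 67 of the 82 members and at 65 of the 76 genes. Over all protein-coding genes the share was 45.1%. Among genes with a promoter peak in both libraries it was 88.3%, beside 85.5% of the 76. The other 11 of the 76 had a promoter peak in each library that did not reach this overlap. They were Rpl5, Rpl15, Rpl21, Rpl27, Rpl36a, Rpl37, Rpl38, Rps3, Rps15a, Rps27 and Rps29. In 10 of them, all but Rpl37, the replicate 2 peak was centred farther downstream, that is, into the gene. The median shift over the 11 was 180 bp. How often unshared peaks of all genes take this direction was not tested. At Rpl21 the replicate 1 peak was centred at 30.5 bp and the replicate 2 peak at 210.5 bp after the start.

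The same direction was the more common one across the family, and less clearly so in the small subunit. The replicate 2 peak was centred farther downstream at 56 of 76 genes, against 58.1% of all genes with a promoter peak in both. This was so at 37 of 46 large-subunit genes (80.4%) and at 19 of 30 small-subunit genes (63.3%). The median shift was 75 bp for the 76 genes and 30 bp for all genes. The median centre stood at -28.5 bp in replicate 1 and at 70.8 bp in replicate 2 for the family, and at -30.5 and 19.5 bp for all genes. When the peak nearest to the start was taken in place of the tallest, 60 of 76 genes and 62.5% of all genes had their replicate 2 peak farther downstream. Peaks were also wider in replicate 2, at 64 of 76 genes against 71.9% of all genes.

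In replicate 1 the family had a median peak width of 200 bp, with a range of 160 to 420 bp. All genes had a median of 220 bp with quartiles of 180 and 260 bp, so the family median was within the usual spread. In replicate 2 the medians were 340 and 320 bp, and the family ranged from 60 to 800 bp. Among the widest in replicate 1 were Rpl13a with 420 bp, Rps21 with 360 bp and Rpl23a with 320 bp. In replicate 2 they were Rpl30 with 800 bp, Rpl8 with 700 bp, Rps21 with 676 bp and the paralog Rps27l with 660 bp. Rps21 was the only one of these in both lists. Rpl5, Rpl36a and Rpl38 had replicate 2 peaks of 60 bp, next to replicate 1 peaks of 180, 200 and 220 bp. More than 1 promoter peak was present at 38 of the 76 genes in replicate 1 and at 24 in replicate 2, beside 62.6% and 47.0% of all genes with a promoter peak.

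**Figure D3:**
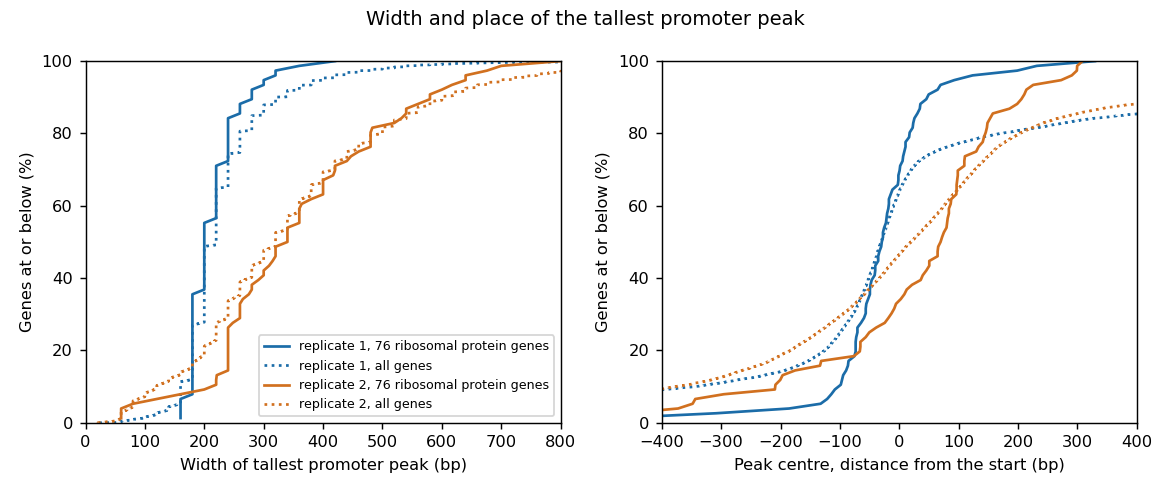
Cumulative share of genes by width of the tallest promoter peak (left, bp) and by distance of its centre from the start (right, bp, positive into the gene), in replicate 1 (blue) and replicate 2 (orange), for the 76 genes (solid) and all genes with a promoter peak (dotted). The solid orange curve of centres lies to the right of the solid blue one, with medians of 70.8 and -28.5 bp.

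The peaks lined up closely with the annotated start. In replicate 1 the tallest peak covered the start at 69 of 76 genes, against 57.5% of all genes with a promoter peak, and in replicate 2 at 56 of 76, against 52.5%. The best covered base lay at -17 bp in replicate 1, inside the tallest peak of 93.4% of the 76 genes, and at 29 bp in replicate 2, inside that of 78.9%. For all genes the highest shares were 60.7% at -40 bp and 52.6% at 10 bp. From 101 to 200 bp after the start the mean share was 12.1% in replicate 1 and 64.9% in replicate 2 for the family, and 12.3% and 41.7% for all genes. Some starts of all genes lie far from the tallest promoter peak, with replicate 1 centres from -2860000 to 2100000 bp. How much this lowers the all-gene shares was not tested.

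Footprints were counted inside the tallest promoter peak. All 79 members with a peak in replicate 1 held at least 1, against 99.0% of all genes with a peak, and 77 of 78 did in replicate 2, against 95.3%, with Rpl5 and its 60 bp peak the exception. The 76 genes had a median of 4 footprints in replicate 1 and 5 in replicate 2, and all genes 4 and 4. Footprints took 30.8 of every 100 bp of peak in replicate 1 and 16.2 in replicate 2, near the 29.6 and 14.7 of all genes. The most footprints over both libraries were at the paralog Rps27l with 17 (5 and 12), followed by Rps27a with 16 (6 and 10), and by Rpl37a and Rps15a with 15 (6 and 9 at each) and Rps18 with 15 (8 and 7). Of these 5 genes the replicate 2 peak held more of them than the replicate 1 peak at all but Rps18. Along the promoter, the share of the 76 genes with a footprint over a base peaked at 42.1% in replicate 1, at -83 bp and again just after the start, and at 27.6% in replicate 2, at 7 bp.

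**Figure D4:**
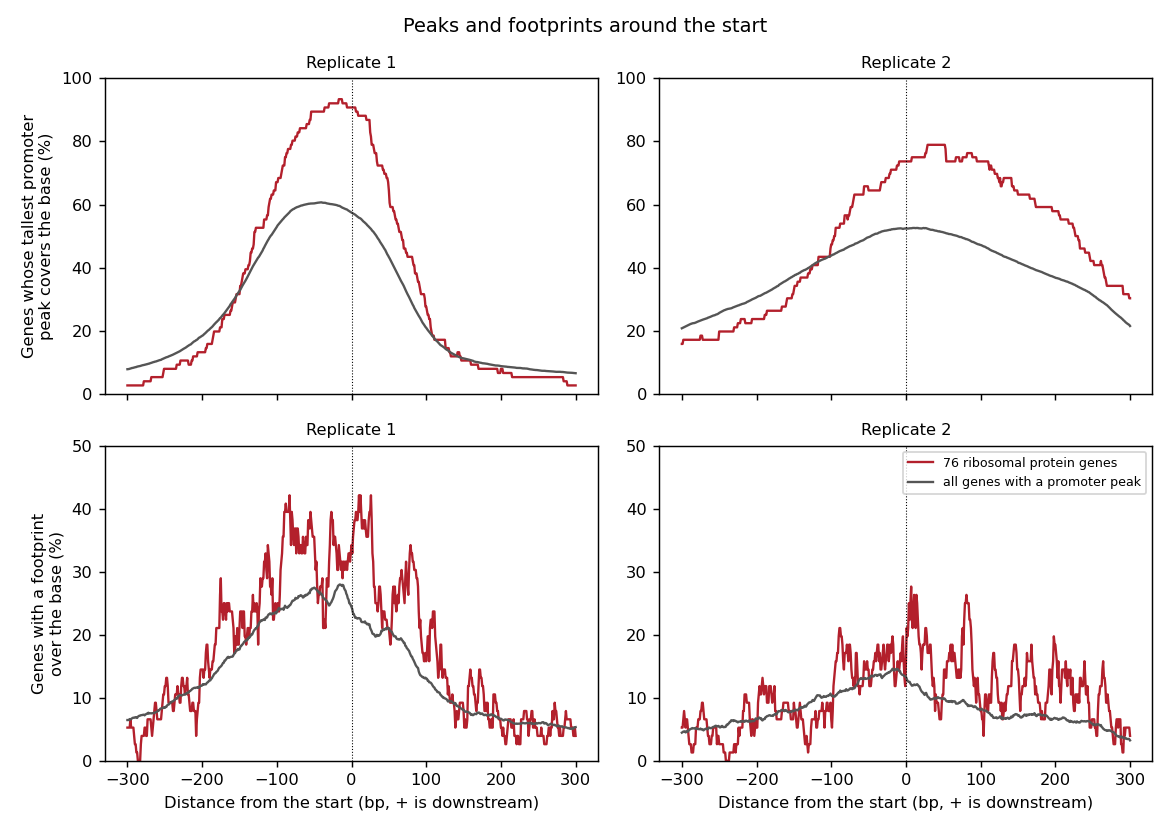
Share of genes whose tallest promoter peak covers each base (top) and that have a footprint over it (bottom), by distance from the start in bp, in replicate 1 (left) and replicate 2 (right). The 76 genes (red) reach 93.4% and 78.9% in the top panels and 42.1% and 27.6% in the bottom panels, where all genes with a promoter peak (grey) reach 60.7%, 52.6%, 28.0% and 14.6%.

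RefSeq promoters of 300 bp, from 250 bp before to 50 bp after the start, were at hand for 62 members, 56 of them among the 76 genes, and for 16521 protein-coding genes. Consensus letters were searched on both strands, and a match describes the sequence and not a bound site. Shares carry Wilson 95% intervals, which cover counting error only. The letters TCTCGCGA are the core of the element bound by the factor BANP. They were present in 9 of 56 promoters, or 16.1% (interval 8.69 to 27.8%). The shares were 1.56% of all genes and 2.65% of genes with a promoter peak in both libraries. The letters extend to the palindrome TCTCGCGAGA at some matches, such as Rpl26, but not at others, such as Rpl7a. The 9 genes were Rpl7a, Rpl12, Rpl26, Rpl27a, Rpl35, Rps6, Rps15a, Rps19 and Rps28, and 4 of them (Rpl7a, Rpl26, Rps19 and Rps28) are among the 6 highest-ranking genes above. Their heights ran from 7.39 at Rpl35 to 30.2 at Rpl7a in replicate 1 and from 1.76 at Rpl35 to 5.60 at Rpl7a in replicate 2, so the group spans most of the family. At Rps19 the letters lay outside the tallest replicate 2 peak, the peak that gave the gene its rank in that library.

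Most TCTCGCGA letters inside an open promoter were protected. They fell inside the tallest replicate 1 peak at 8 genes, and at 7 of these at least 50% of the letters were in a footprint; in replicate 2 this was so at 4 of 6 genes. Counted by match in a tallest peak, 13 of 14 were in a footprint in replicate 1 and 6 of 10 in replicate 2, against 77.9% and 33.2% over all genes. Matches that overlap on opposite strands, as in TCTCGCGAGA, count as separate matches in these shares. The TCTCGCGA letters of Rpl35 lay at -189 bp, outside its tallest peak.

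To show what was protected, 4 replicate 1 footprints that carry these letters and overlap a replicate 2 footprint are printed, with 8 bases on each side and 1 match in capitals.
Rpl7a, chr2:26910723-26910778, plus strand: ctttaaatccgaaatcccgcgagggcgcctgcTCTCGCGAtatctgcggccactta
Rpl26, chr11:68901522-68901563, plus strand: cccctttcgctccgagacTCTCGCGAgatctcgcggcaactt
Rps19, chr7:24884554-24884608, plus strand: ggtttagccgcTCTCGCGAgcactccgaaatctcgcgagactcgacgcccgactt
Rps6, chr4:86857395-86857437, minus strand: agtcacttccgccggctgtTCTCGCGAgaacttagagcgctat
The replicate 1 footprints were 40, 26, 39 and 27 bp wide in that order. In Rps19 the capitals begin at -27 bp, and a further copy begins at -8 bp. In Rps6 the overlapping footprint of replicate 2 is chr4:86857428-86857434, and less than 50% of its TCTCGCGA letters were in a footprint of that library.

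The ETS letters CCGGAAG were present in 22 of 56 promoters, or 39.3% (27.6 to 52.4%), against 12.3% of all genes and 19.6% of genes with a peak in both libraries. Of 21 matches in the tallest replicate 1 peaks 6 were in a footprint, and of 16 in replicate 2 peaks 1 was, against 39.0% and 18.5% over all genes, and with so few matches the difference was not tested. The NRF1 letters GCGCNTGCG were in 6 of 56 promoters or 10.7% (5.00 to 21.5%), between 9.31% of all genes and 15.5% of genes with a peak in both libraries. Of their 8 matches in replicate 1 peaks 7 were in a footprint, and 5 of 5 in replicate 2, against 81.9% and 66.7% over all genes. An NRF1 footprint and an ETS footprint whose letters were in a footprint of both libraries are shown for comparison, with the letters in capitals.
Rpl5 (NRF1), chr5:107900527-107900570, plus strand: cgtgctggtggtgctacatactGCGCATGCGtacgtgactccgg
Rps21 (ETS), chr2:180257338-180257393, plus strand: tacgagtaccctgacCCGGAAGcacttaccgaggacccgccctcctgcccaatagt
The Rpl5 letters lie after the start, inside the replicate 1 peak and outside the 60 bp replicate 2 peak.

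Other letters differed less. The GC-box letters GGGCGG of SP and KLF factors were in 58.9% of the 56 promoters (45.9 to 70.8%), between 48.0% of all genes and 67.5% of genes with a peak in both libraries. CCAAT, the letters of NFY, was in 32.1% (21.4 to 45.2%) against 38.7% of all genes and 39.8% of genes with a peak in both. TATAAA was in 8.93% (3.87 to 19.3%), between 12.9% of all genes and 6.09% of genes with a peak in both. The E-box CACGTG, which Myc can bind, was in 8.93% against 8.11% and 10.5%, and AAGATGGCG, the letters of YY1, in 5.36% (1.84 to 14.6%) against 2.05% and 3.59%. The interval of each of these 5 includes both shares.

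**Figure D5:**
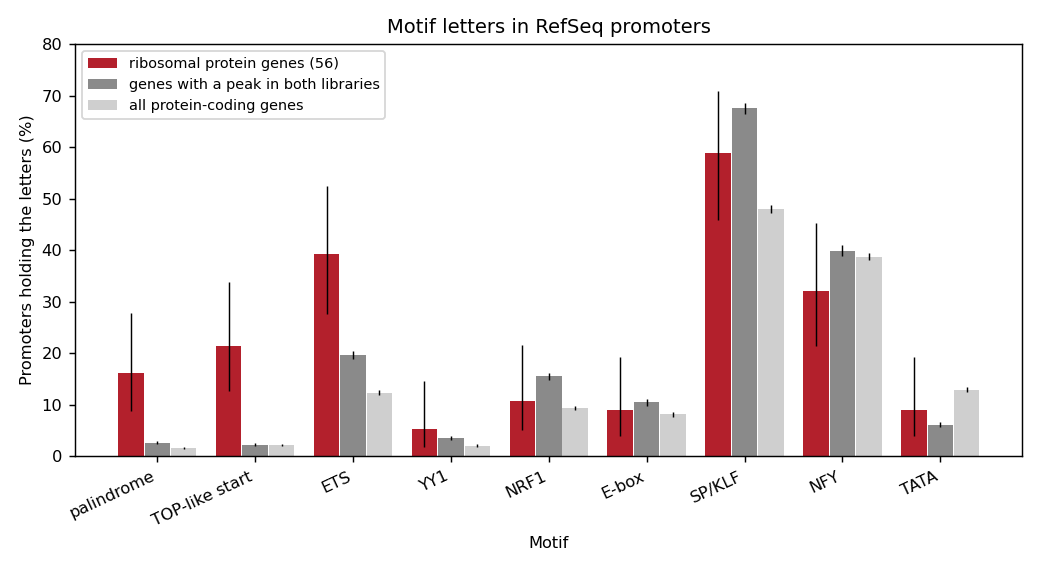
Share of RefSeq promoters that hold each set of letters (percent), with Wilson 95% intervals, for 56 of the 76 genes (red), genes with a promoter peak in both libraries (dark grey) and all protein-coding genes (light grey). The red bars stand above both others with separate intervals for TCTCGCGA (16.1%), the TOP-like start (21.4%) and ETS (39.3%).

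A TOP-like start, meaning C at the RefSeq start followed by at least 4 pyrimidines, was found in 12 of the 56 promoters, or 21.4% (12.7 to 33.8%), against 2.20% of all genes. The 12 were Rpl14, Rpl15, Rpl28, Rpl35, Rpl38, Rplp2, Rps6, Rps10, Rps15a, Rps18, Rps21 and Rps27, and the paralog Rps27rt also had one. The count depends on a start that is exact to the base. A run of 8 or more pyrimidines with at least 1 base within 10 bp of the RefSeq start was found in 25 of 56 promoters, or 44.6%, against 13.7% of all genes. The first 20 bases of 6 of these genes are shown to make the tract visible, with the pyrimidines before the first purine in capitals.
Rpl15, chr14:18270967-18270986, minus strand: CTTCCTTTCCTCTggcggca
Rpl35, chr2:39005112-39005131, minus strand: CTCTTTCTCTCgaaccaggc
Rpl38, chr11:114668580-114668599, plus strand: CTTTCCCCgttctcttcggt
Rps6, chr4:86857348-86857367, minus strand: CTCTTTTTCgtgacgcctcc
Rps10, chr17:27635225-27635244, minus strand: CTTCCTTTCCagcctccgcc
Rps27, chr3:90213629-90213648, minus strand: CCTTTCCggcggtgacgacc
Rpl38 and Rpl35 in this group are among the lower peaks and Rpl15, with 18.0 and 3.21, among the higher ones, so a TOP-like start did not go with one level of opening.

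Of the 76 genes, 29 host at least 1 small nucleolar RNA, 56 in all, against 1.18% of all protein-coding genes. Rpl4 hosts 5 and Rpl13a 4. The hosts had median heights of 11.6 and 2.85 and the 47 others 10.4 and 2.81, a difference smaller than the spread within either group. A start of another protein-coding gene on the opposite strand lay within 1 kb and pointed away at 12 of the 76, against 9.28% of all genes. Such pairs include Rpl7a with Med22, Rpl18 with Sphk2, Rps28 with Ndufa7, Rpl4 with Zwilch and Rps27 with Rab13. The tallest peak lay nearer to the start of another gene at Rpl4, Rpl7a, Rpl9 and Rps27 in replicate 1 and at Rpl4, Rps10, Rps18 and Rps25 in replicate 2, and its height cannot be assigned to 1 gene there. Distal peaks, farther than 1 kb from every start and within 50 kb, had a median of 4 in replicate 1 and 0 in replicate 2 for the 76 genes and for all genes alike. None was present at 2 of 76 in replicate 1, against 16.0% of all genes, and at 40 of 76 in replicate 2, against 59.9%.

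The paralogs fell into 2 kinds. Rpl36al, a copy of Rpl36a, had 21.4 and 3.54, above Rpl36a with 6.68 and 1.54 in both libraries, although its replicate 1 peak lay nearer to the start of Mgat2. Rps27l, a relative of Rps27, had 9.95 and 2.81 beside 4.12 and 2.86. At the other paralogs few or no peaks were called. Rps27rt had 1 peak of 0.853 in replicate 1, centred at -396 bp, and none in replicate 2. It resembles Rps27 closely, so reads may be hard to place between them, which was not tested.

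Rpl3l, Rpl10l and Rpl39l had no promoter peak in either library. Rpl3l is the copy of Rpl3 used in striated muscle of adults, and Rpl10l and Rpl39l are known from the mouse testis. Their usual partners were open, with 17.3 and 3.72 at Rpl3, 7.48 and 1.70 at Rpl10, and 4.02 and 2.04 at Rpl39. The nearest peak to Rpl3l lay 3260 bp away in replicate 1, with a height of 12.3, and 3240 bp away in replicate 2, with 2.39. In the longer deposited list of replicate 1 a peak of 0.567 lay 907 bp away, and no base within 1 kb was listed for replicate 2. At Rpl10l the longer list of replicate 1 held a peak of 0.221 at the start. Not called is a statement about these lists and their depth, and weaker opening in a few fibres was not detectable. The Rpl3l promoter is shown as a contrast to the 4 above, chosen after its values were seen, and it holds no base in a footprint of either library.
Rpl3l, chr17:24727676-24727855, plus strand: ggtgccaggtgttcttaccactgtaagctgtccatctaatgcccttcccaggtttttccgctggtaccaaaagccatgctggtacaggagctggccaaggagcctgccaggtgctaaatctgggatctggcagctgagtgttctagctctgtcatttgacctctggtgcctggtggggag

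Ribosomal protein genes with other names were open as well. Rps3a1 had 17.3 and 4.08, and Fau, a fusion of a ubiquitin-like protein with a small-subunit protein, 24.4 and 2.21. Rack1, a signalling scaffold on the small subunit, had 3.56 and 2.91. The peak at Fau is also the promoter peak of the mitochondrial ribosomal protein gene Mrpl49. Rpl7l1 had 7.46 and 2.22 and Rpl22l1 12.2 and 1.96, each with a shared peak. Annotated pseudogenes with Rpl or Rps names and the suffix -ps had a peak within 1 kb of their start in 25 of 282 cases in replicate 1 and in 4 in replicate 2, or 8.87% and 1.42%, beside 6.21% and 0.973% of other processed pseudogenes. Farther than 2 kb from any protein-coding start the shares were 8.12% and 0.738%, beside 5.89% and 0.726%.

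Most listed genes that work with ribosomes were open too. A promoter peak was present in both libraries at 9 of 10 genes of translation elongation, with median heights of 13.6 and 2.76, at 11 of 12 of initiation, with 15.5 and 3.21, and at 16 of 18 of ribosome biogenesis, with 8.83 and 2.17. Eef2, the translocation factor, had 28.7 and 3.67, and Eif5a, which eases difficult peptide bonds, 37.2 and 3.81. Eef1a2, the elongation factor of adult muscle and neurons, had 3.07 in replicate 1 and no promoter peak in replicate 2. All 8 genes of a short list of regulators linked to ribosome production had a promoter peak in both, against 51.0% of all protein-coding genes. Among the 8 were Larp1, which binds TOP RNAs, with 8.91 and 1.42, Mtor with 8.90 and 1.75, and Eif4ebp1 with 0.549 and 2.13.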

How the data were processed

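DNase-seq peaks, footprints and intervals were used as the authors deposited them, each library called alone on mm10, per the file headers and notes. Peak height is a deposited signal, normalized to read depth by the authors. The deposited intervals carry a false discovery rate, an adjusted p-value, and the deposited score of footprints is constant, so only their positions were used. For aligner, callers and thresholds nothing is stated in those notes or the labels, and read totals were not used. 

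The peak list with fewer rows was used. Starts came from GENCODE M21. Distances were measured from the RefSeq start (GRCm38.p6) where given, otherwise from the principal GENCODE transcript. Promoter peaks were those no farther than 1 kb from a start of the gene. With 1 group of 2 libraries no test was possible.

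Members and lists were chosen with earlier results of these data known. Named were genes without a peak, the 6 highest and 6 lowest by mean rank, the 4 extremes of ratio, footprints and width, the paralogs with their partners, and fixed genes; motif carriers, unshared genes and neighbours were named after values were seen. Some genes that the rule names are not reported here, though counts and medians include them. Scripts ran in Python 3.11.15 with pandas 2.3.3, numpy 2.4.6, matplotlib 3.10.9 and scipy 1.17.1. Overlap code was tested on simulated data and differed from bedtools 2.31.1 in 0 calls.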

Additional observations from a re-analysis of the deposited data

How the results depend on the processing

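Alternatives were the longer peak list, equal numbers of peaks, promoters of 500 bp or 2 kb, the gene start only, merged peaks, the nearest peak, other overlap rules and a shorter motif window. The downstream shift was added after seeing the data and counted 50 to 60 genes, with 56 of 76 in the main setting. The 50 came from the gene start only, where 73 members had a replicate 2 promoter peak, so fewer than 76 genes could be compared. Of all values, 93 kept their reading, 2 moved and 1 was weaker. Requiring an overlap of 50% of both peaks lowered shared members from 67 to 34. With the window from 100 bp before the start, GGGCGG fell from 58.1% to 43.5% of 62 promoters and CACGTG from 8.06% to 3.23%. A shorter window holds fewer letters. In that window ETS fell from 38.7% to 29.0% and CCAAT from 32.3% to 22.6%, and both were counted as kept. The TOP-like start, read at the start itself, could not change with this window and stayed at 21.0%. With 1 library left out, 78 to 79 members had a promoter peak. No paired analysis was possible because there is 1 group. Peak lists of unequal length limit comparisons between the libraries.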
